A study of Homo sapiens with 12 samples.

Results

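The genes described here encode enzymes of the tricarboxylic acid cycle in the mitochondrial matrix, measured in HK-2 cells exposed to a compound that the labels call Nnm. They are CS, IDH3A, IDH3B, IDH2, OGDH, DLST, SUCLG1 and MDH2, which make 8 of a list of 9 enzyme genes. For 1 of the 9 listed genes the annotation used here named no probe set, and it was not analysed here. A probe set, the group of probes on an Affymetrix array that together report 1 transcript region, was taken for a gene only where the annotation named that gene alone. By this rule 17 probe sets of 54613 belonged to the 8 genes, and 14 of them were tested among 22829. Where a gene had several, the one that was brightest on average stood for it. All 22829 probe sets entered the tests singly, and those naming 1 gene alone covered 10966 genes of the series.

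HK-2 is a human cell line made by immortalizing epithelial cells of the kidney's proximal tubule, and the series was made to look for expression signatures of compounds toxic to the kidney. The 4 groups, with 3 arrays each, were cells given a high dose of Nnm for 24 h, cells given vehicle for 24 h, cells given a high dose of Nnm for 48 h, and cells given vehicle for 48 h. All groups came from this 1 cell line, and the labels specify neither the dose nor the vehicle any further. The replicates are labelled as biological, but nothing in the labels says that they came from separate cultures, so the p-values measure the spread between these samples only.

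The cycle oxidizes the acetyl group of acetyl-CoA to carbon dioxide and passes the electrons to NADH and to the succinate dehydrogenase of the respiratory chain. Its intermediates also leave the mitochondrion, citrate for fatty acid synthesis and malate or oxaloacetate for the synthesis of glucose. Proximal tubule cells in the kidney are rich in mitochondria and depend largely on oxidative metabolism, while lines grown in culture rely more on glycolysis.

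Promoter sequence is shown first for the genes whose upstream window held the core of the binding site of ETS factors, a family that includes GABPA, an activator of many genes for mitochondrial proteins. The windows are the 250 bases before the start that the RefSeq promoter table of GRCh38.p14 gives for a gene, written 5′ to 3′ along the gene, with the ETS core (CCGGAAG, or CTTCCGG where it lies on the opposite strand) in capitals. The table held 7 of the 8 genes and not OGDH. For IDH2 the start in the table lies 1847 bases inside the gene's locus, so its window is not upstream of the whole gene. That window held none of the motifs searched, and it is counted among the 7. DLST lies at chr14:74881666-74881915 on the plus strand, IDH3B at chr20:2664217-2664466 on the minus strand and MDH2 at chr7:76047856-76048105 on the plus strand.
DLST: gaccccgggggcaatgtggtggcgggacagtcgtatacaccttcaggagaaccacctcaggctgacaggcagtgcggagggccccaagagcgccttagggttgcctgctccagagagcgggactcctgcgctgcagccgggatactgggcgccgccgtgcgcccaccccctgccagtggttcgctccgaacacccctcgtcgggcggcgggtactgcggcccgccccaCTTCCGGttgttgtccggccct
IDH3B: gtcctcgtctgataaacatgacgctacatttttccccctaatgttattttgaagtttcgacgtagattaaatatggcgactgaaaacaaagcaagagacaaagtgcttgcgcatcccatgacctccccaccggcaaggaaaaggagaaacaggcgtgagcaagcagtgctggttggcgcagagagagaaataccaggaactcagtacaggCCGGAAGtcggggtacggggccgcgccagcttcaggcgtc
MDH2: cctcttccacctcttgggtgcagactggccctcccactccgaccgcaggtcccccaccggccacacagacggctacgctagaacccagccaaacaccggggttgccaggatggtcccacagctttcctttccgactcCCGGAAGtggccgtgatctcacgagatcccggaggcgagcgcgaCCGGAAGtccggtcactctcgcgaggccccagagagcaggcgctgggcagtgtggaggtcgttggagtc
In DLST the ETS core began 22 bases before that start, in IDH3B 40 bases before it, and in MDH2 113 and 69 bases before it. An ETS core on either strand was found in 3 of the 7 windows, against 8.52% of the 35116 promoter windows of the table. The core of the NRF1 site (GCATGCG) was found in 0 of the 7 windows against 3.39% of all windows, and the half-site of the estrogen-related receptors (AAGGTCA) in 0 of the 7 against 3.44%. The E-box CACGTG was in 0 of the 7 against 6.34%, and the CCAAT box in 1 of the 7, that of CS, against 32.0%. The GC box (GGGCGG), which overlapped no ETS core in these windows, was in 3 of the 7, those of CS, DLST and IDH3A, against 42.6%. These matches describe letters in a window, and no binding was measured. DLST and IDH3B fell with Nnm in the tests below, MDH2 on the probe set that stands for it passed at 48 h in some of the fits only, and OGDH, which fell, has no window here.

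The values are log2 expression made with GCRMA. Array medians lay between 2.91 and 2.98, and each array had 22023 to 22228 probe sets above log2 4. Along the first principal component, with 57.4% of the variance, Nnm replicates 1 and 3 took values from 68.6 to 87.8 and the 6 control arrays from -49.6 to -44.2. Nnm replicate 2 stood apart from the other Nnm arrays, at -16.1 at 24 h and -19.8 at 48 h, nearer to the control arrays. Over all tested probe sets the differences between Nnm and the same-numbered control had an SD of 0.956, 0.442 and 0.946 in replicates 1, 2 and 3 at 24 h, and of 0.936, 0.434 and 0.850 at 48 h. Results below are therefore also given without the Nnm arrays numbered 2. Of 12 markers of epithelium and proximal tubule, the 6 above the filter (KRT8, KRT18, KRT19, EPCAM, CDH1 and PAX8) included none of the transporters and brush border genes GGT1, ANPEP, AQP1, LRP2, CUBN and SLC34A1, which lay under it. The mean level of these 12 ranged from 6.79 to 7.05 in Nnm arrays and from 6.86 to 7.11 in control arrays. Of the fibroblast markers 3 of 6 were above the filter (COL1A1, DCN and LUM), with a mean level of 6.22 to 6.76 in Nnm arrays and 6.41 to 6.67 in control arrays. Of the endothelial markers 1 of 4 was above it (PECAM1), and of the leukocyte and distal nephron markers 0. Of the podocyte markers 2 of 3 were above it (PODXL and SYNPO), and their list had a mean level of 5.13 to 5.41 in Nnm arrays and 4.84 to 5.12 in control arrays, ranges that did not overlap. Of the 12 markers above the filter, 0 were called at either time in the limma fit of all arrays. Without the Nnm arrays numbered 2, KRT18, KRT19, COL1A1 and DCN were called lower and SYNPO higher at 24 h. At 48 h that fit called KRT18, KRT19, PAX8, PECAM1 and PODXL higher and CDH1 and COL1A1 lower, so KRT18 and KRT19 changed direction. It called 23.6% of all tested probe sets lower and 23.4% higher at 24 h, and 19.8% and 22.3% at 48 h. A replicate block shared by all arrays called KRT8 and COL1A1 lower and SYNPO higher at 24 h, and CDH1 lower and PODXL higher at 48 h. A block within each time called KRT8 lower at 24 h and PODXL higher at 48 h. The shares of all probe sets called in these block fits are given with the lists below. The part of these markers in the results was not tested.

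All 8 cycle enzyme genes averaged lower in Nnm cells than in control cells at both times, and 3 of them, IDH3B, OGDH and DLST, fell in the test at both. In RNA from whole cultures, fewer cells that express a gene and less of its RNA per cell cannot be told apart. The drop was between 1.57-fold and 2.15-fold at 24 h and between 1.63-fold and 1.97-fold at 48 h for these 3 genes. OGDH and DLST encode the first and second components of the oxoglutarate dehydrogenase complex, and IDH3B a subunit of the NAD-dependent isocitrate dehydrogenase. These 3 genes thus belong to the 2 oxidative decarboxylation steps of the cycle, but the calls were not confined to those steps. IDH2 and the probe set that stands for IDH3A, both of the isocitrate step, were not called. Of the other cycle enzymes listed below, SDHA was called lower at both times and SUCLG2 at 48 h, at other steps. A call means an adjusted p under 0.05 in limma, with the Benjamini-Hochberg adjustment running over all 22829 tested probe sets. By this rule 7.42% of all tested probe sets were called lower at 24 h and 4.44% at 48 h, and 7.32% and 5.74% were called higher. Of the 8 genes, 3 were called lower and 0 higher at each time. At an unadjusted p under 0.05 in limma, 5 genes passed at 24 h and 6 at 48 h. The share of all probe sets under that limit is not given here, so nothing is read from these counts. The count of 3 became 0 at either time without Nnm replicate 1 or 3, or control replicate 1 or 3, of that time. It became 1 at 48 h without control replicate 2. The fits with 0 called 81 to 404 of all 22829 probe sets at 24 h, against 3366 with every array. At 48 h they called 207 to 403 against 2323, and the fit without control replicate 2 called 815. Calls over all probe sets thus dropped in the same fits.

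**Figure D1:**
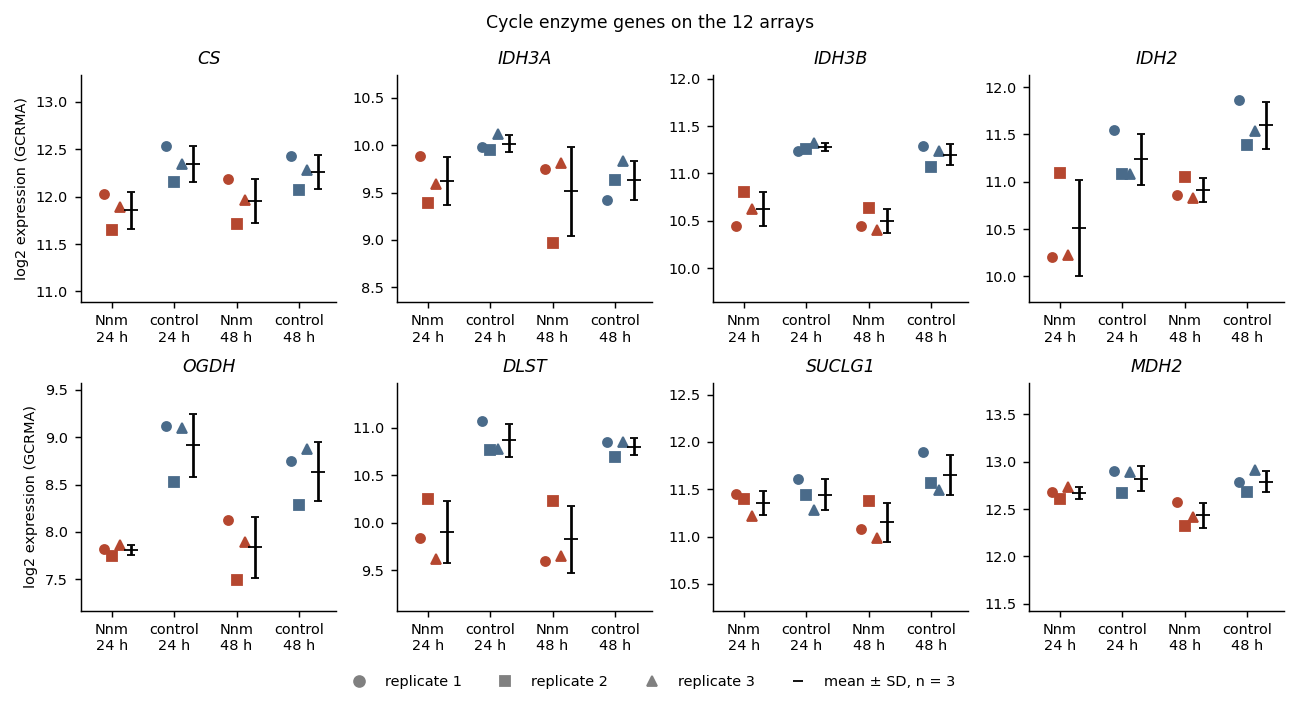
Log2 expression of the 8 cycle enzyme genes on the 12 arrays, 1 panel a gene, with Nnm left of control at 24 h and at 48 h; symbols are replicates and bars the mean ± SD of 3 arrays. The Nnm arrays of IDH3B, OGDH and DLST all lie below the control arrays of their time.

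CS encodes citrate synthase, which joins acetyl-CoA to oxaloacetate at the entry of the cycle. At 24 h its log2 level was 12.03, 11.64 and 11.89 on the Nnm arrays numbered 1 to 3, against 12.54, 12.15 and 12.34 on the control arrays. Every Nnm array lay below every control array, and replicate 2 was the lowest of its group in both. The means were 11.86 ± 0.20 with Nnm and 12.34 ± 0.19 in control (SD, n = 3 each), a log2 difference of -0.49 with a 95% interval of -0.87 to -0.11 and an adjusted p of 0.0758. The 48 h levels were 12.19, 11.71 and 11.96 with Nnm against 12.43, 12.07 and 12.28 in control. These groups overlapped, since Nnm replicate 1 lay above control replicate 2, and the log2 difference was -0.30 (95% interval -0.69 to 0.08, adjusted p 0.257). Within each replicate number the order was the same in all 6 pairs. The same-numbered differences were -0.51, -0.51 and -0.45 at 24 h and -0.24, -0.36 and -0.32 at 48 h, a narrower range than the levels themselves. The replicate number was fitted as a block in both of these ways, shared by all arrays and within each time. The shared block called CS lower at both times, with an adjusted p of 0.0121 at 24 h and 0.0417 at 48 h. The block within each time called it at 24 h (adjusted p 0.0459) and not at 48 h (adjusted p 0.103).

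The next oxidation, from isocitrate to 2-oxoglutarate, is carried out by the NAD-dependent isocitrate dehydrogenase, built from catalytic alpha subunits (IDH3A) with beta (IDH3B) and gamma subunits, and in parallel by the NADP-dependent mitochondrial enzyme IDH2. IDH3B stood at 10.44, 10.80 and 10.63 on the 24 h Nnm arrays against 11.24, 11.26 and 11.32 in control. On the 48 h arrays it stood at 10.44, 10.64 and 10.40 with Nnm against 11.29, 11.07 and 11.24 in control. The groups did not overlap at either time, and Nnm replicate 2 was the highest Nnm array at both. IDH3B fell by 0.65 on the log2 scale at 24 h (SE 0.13, adjusted p 0.0169), to 63.7% of control, and by 0.71 at 48 h (SE 0.13, adjusted p 0.0149), to 61.3% of control. Without the Nnm arrays numbered 2 the log2 differences were -0.74 and -0.78, with adjusted p of 0.000771 and 0.000774.

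IDH3A, the catalytic subunit, gave different answers on its 2 tested probe sets. The one that stands for the gene, read 9.88, 9.39 and 9.59 with Nnm at 24 h against 9.98, 9.95 and 10.12 in control. The 48 h readings were 9.75, 8.97 and 9.82 with Nnm against 9.42, 9.64 and 9.83 in control. The groups were apart at 24 h and overlapped at 48 h, where Nnm replicate 2 was the lowest of the 6 arrays. Its log2 difference was -0.39 at 24 h (95% interval -0.90 to 0.11, adjusted p 0.236) and -0.12 at 48 h (95% interval -0.62 to 0.39, adjusted p 0.764). Omitting both replicate 2 Nnm arrays, the 48 h difference turned to 0.15, with an adjusted p of 0.435. The other probe set read 6.52, 6.77 and 6.98 with Nnm at 24 h against 7.50, 7.72 and 7.93 in control, and 6.51, 6.57 and 6.71 with Nnm at 48 h against 7.35, 7.57 and 7.49 in control. On it the groups did not overlap at either time, and IDH3A was called lower, with log2 differences of -0.96 (SE 0.16, adjusted p 0.0107) and -0.87 (SE 0.16, adjusted p 0.0134). Which transcripts each probe set reports was not tested.

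IDH2 had the widest spread among the Nnm arrays at 24 h. Its log2 level there was 10.20, 11.09 and 10.23 with Nnm against 11.55, 11.08 and 11.09 in control. Nnm replicate 2 lay at the level of the control arrays, and the other 2 Nnm arrays lay below all of them. At 48 h the levels were 10.86, 11.05 and 10.82 with Nnm against 11.86, 11.39 and 11.54 in control, with no overlap. The log2 difference was -0.73 at 24 h (95% interval -1.28 to -0.18, adjusted p 0.0678) and -0.68 at 48 h (95% interval -1.23 to -0.14, adjusted p 0.0955), and neither was called. Omitting both replicate 2 Nnm arrays, IDH2 was called lower at both times, with log2 differences of -1.02 (adjusted p 0.00183) and -0.75 (adjusted p 0.0102). That fit drops the Nnm array that lay at the control level, and it called 23.6% and 19.8% of all tested probe sets lower.

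The oxoglutarate dehydrogenase complex turns 2-oxoglutarate into succinyl-CoA. OGDH, its thiamine-dependent first component, read 7.81, 7.75 and 7.86 with Nnm at 24 h against 9.12, 8.53 and 9.09 in control. Its 48 h levels were 8.13, 7.49 and 7.89 with Nnm against 8.75, 8.29 and 8.88 in control. The groups did not overlap at either time. The 24 h Nnm arrays were close together, with an SD of 0.06, while the control arrays had an SD of 0.33, with replicate 2 the lowest. OGDH fell by 1.10 on the log2 scale at 24 h (SE 0.22, adjusted p 0.0171), to 46.5% of control, and by 0.80 at 48 h (SE 0.22, adjusted p 0.0464), to 57.4% of control. The 48 h call stood near the threshold and held in 11 of 25 fits, that of all arrays included. It was lost, among others, with no filter (adjusted p 0.119), with the mean of the OGDH probe sets (adjusted p 0.0533) and without Nnm replicate 2 of 48 h (adjusted p 0.0636). Within replicate numbers the difference was -1.30, -0.78 and -1.23 at 24 h and -0.63, -0.79 and -0.99 at 48 h.

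DLST, the second component, carries the lipoyl group that takes up the succinyl unit. It read 9.83, 10.25 and 9.62 with Nnm at 24 h against 11.07, 10.77 and 10.77 in control. The 48 h arrays gave 9.59, 10.23 and 9.65 with Nnm against 10.85, 10.70 and 10.86 in control. Nnm replicate 2 was the highest Nnm array at both times and still lay below every control array. DLST fell by 0.97 on the log2 scale at 24 h (SE 0.21, adjusted p 0.0202), to 51.0% of control, and by 0.98 at 48 h (SE 0.21, adjusted p 0.0215), to 50.8% of control. The same-numbered differences were -1.24, -0.52 and -1.16 at 24 h and -1.26, -0.47 and -1.21 at 48 h. Without the Nnm arrays numbered 2 the differences were -1.15 and -1.18, with adjusted p of 0.000189 and 0.000216.

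SUCLG1 encodes the alpha subunit of succinyl-CoA ligase, which makes GTP or ATP from succinyl-CoA. It read 11.45, 11.40 and 11.22 with Nnm at 24 h against 11.61, 11.44 and 11.28 in control, and these groups overlapped. Its 48 h levels were 11.08, 11.38 and 10.99 with Nnm against 11.89, 11.56 and 11.50 in control, with no overlap. The log2 difference was -0.09 at 24 h (95% interval -0.44 to 0.26, adjusted p 0.723) and -0.50 at 48 h (95% interval -0.85 to -0.15, adjusted p 0.0680). SUCLG1 was called lower at 48 h with the shared replicate block (adjusted p 0.0273) and not with the block within each time (adjusted p 0.0732). Omitting both replicate 2 Nnm arrays it was called lower there too, with a difference of -0.61 (adjusted p 0.0132).

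MDH2, the mitochondrial malate dehydrogenase that remakes oxaloacetate, read 12.68, 12.60 and 12.73 with Nnm at 24 h against 12.90, 12.67 and 12.89 in control. On the 48 h arrays it read 12.57, 12.32 and 12.41 with Nnm against 12.78, 12.68 and 12.91 in control. The groups overlapped at 24 h and were apart at 48 h. The log2 difference was -0.15 at 24 h (95% interval -0.42 to 0.12, adjusted p 0.409) and -0.36 at 48 h (95% interval -0.63 to -0.08, adjusted p 0.0857). The shared replicate block called MDH2 lower at 48 h (adjusted p 0.0360), and the block within each time did not (adjusted p 0.0914). Its other probe set read 5.69, 5.02 and 5.07 with Nnm at 48 h against 6.08, 6.40 and 6.31 in control. On that probe set MDH2 was called lower at 48 h, where it fell by 1.00 on the log2 scale (adjusted p 0.0248), and at 24 h the difference was -0.58 (adjusted p 0.0967).

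**Figure D2:**
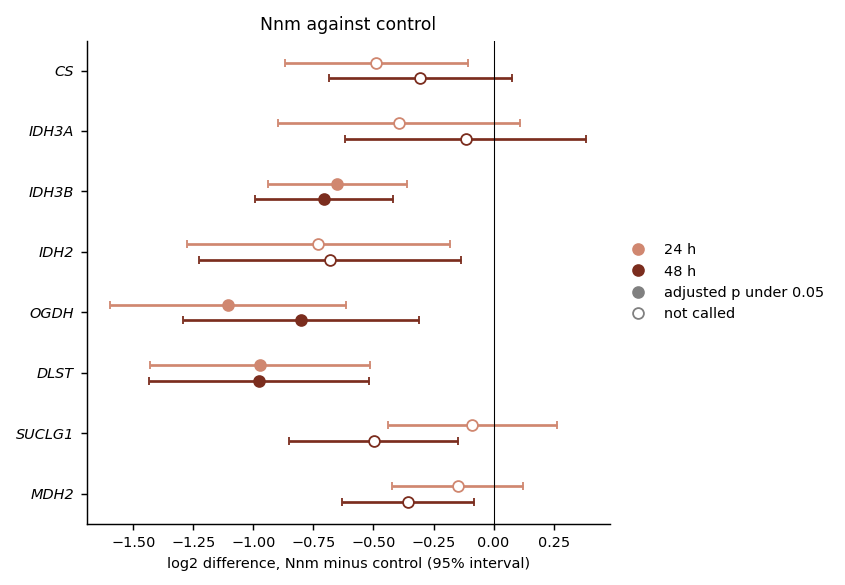
Log2 difference of Nnm minus control for each of the 8 genes at 24 h and 48 h, with 95% intervals from limma; filled points were called at an adjusted p under 0.05. All 16 points lie below 0, and OGDH and DLST lie farthest from it at both times.

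The other probe sets of the genes also read lower with Nnm. For IDH3B both were called at 24 h, with log2 differences of -0.56 (adjusted p 0.0205) and -0.44 (adjusted p 0.0299). At 48 h they gave -0.62 (adjusted p 0.0168) and -0.34 (adjusted p 0.0676), so that only the first of them was called again. The other OGDH probe set gave -1.10 at 24 h (adjusted p 0.0371) and -0.86 at 48 h (adjusted p 0.0868). The other IDH2 probe set gave -0.74 and -0.58, with adjusted p of 0.163 and 0.293. A further probe set each of IDH3A, OGDH and SUCLG1 stayed under the filter and was not tested.

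**Figure D3:**
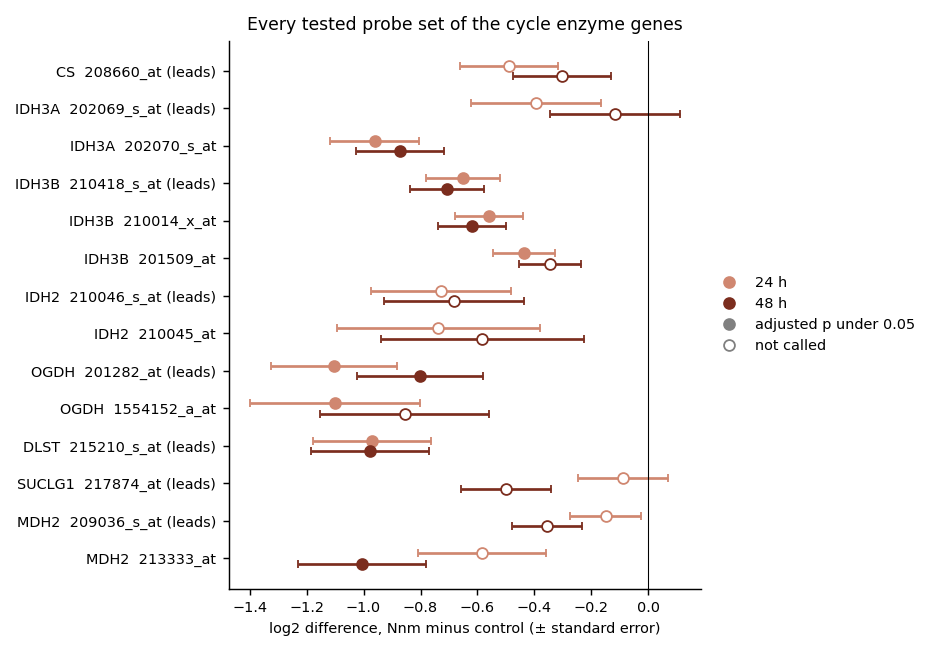
Log2 difference of Nnm minus control, with its standard error, for the 14 tested probe sets of the 8 genes at 24 h and 48 h; the probe set that stands for a gene is marked and filled points were called. The second probe sets of IDH3A and MDH2 lie farther below 0 than the ones that stand for those genes.

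Read as a list, the 8 genes had a median log2 difference of -0.57 at 24 h and -0.59 at 48 h, against -0.01 and 0.01 over all tested probe sets. All 8 were below 0 at each time, where 50.7% of all tested probe sets were below 0 at 24 h and 49.5% at 48 h. Every Nnm array lay below every control array for 5 of the 8 at 24 h (CS, IDH3A, IDH3B, OGDH and DLST), against 18.9% of all tested probe sets. At 48 h this held for 6 of the 8 (IDH3B, IDH2, OGDH, DLST, SUCLG1 and MDH2), against 16.1%. For 0 of the 8 did all Nnm arrays lie above the control arrays at either time, a direction for which the share of all probe sets is not given here. The arrays share RNA samples across the genes, so these counts are not independent of each other. The genes were also chosen with earlier results of these data known. Each is read from its brightest probe set, while the shares cover tested probe sets of any brightness.

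Nnm replicate 2 bore on these counts. By replicate number 1, 2 and 3, the median difference over the 8 genes was -0.65, -0.48 and -0.61 at 24 h, with 8, 7 and 8 genes lower. The 48 h medians were -0.72, -0.40 and -0.61, with 7, 8 and 8 genes lower. Replicate 2 had the smallest median difference at each time and the same direction. The genes were not alike in this. For IDH2, DLST, IDH3B and SUCLG1 replicate 2 showed the smallest difference at both times, while for CS its difference was as large as or larger than the others, and for IDH3A it was the largest at both times. Without the Nnm arrays numbered 2, 4 of the 8 genes were called lower at 24 h (IDH3B, IDH2, OGDH and DLST), against 23.6% of all tested probe sets. At 48 h 5 of the 8 were called, the same 4 and SUCLG1, against 19.8%. With the shared replicate block, 4 genes were called lower at 24 h (IDH3B, OGDH, DLST and CS), against 15.1% of all tested probe sets. At 48 h that fit called 6 (IDH3B, OGDH, DLST, CS, SUCLG1 and MDH2), against 10.2%. The block within each time called 4 genes lower at 24 h (IDH3B, OGDH, DLST and CS), against 5.24%, and 3 at 48 h (IDH3B, OGDH and DLST), against 4.21%.

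**Figure D4:**
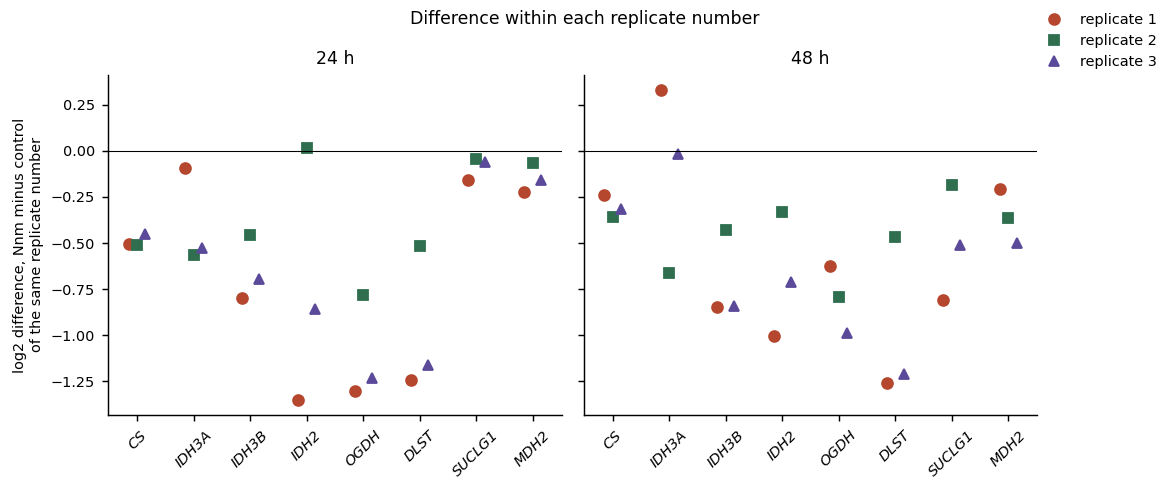
Log2 difference between the Nnm and the control array of the same replicate number, for each of the 8 genes at 24 h (left) and 48 h (right). CS, IDH3B, OGDH, DLST, SUCLG1 and MDH2 lie below 0 in all 6 pairs, and IDH2 and IDH3A each lie above it in 1.

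Time in culture and the length of exposure were compared next. The Nnm effect at 48 h minus that at 24 h was called for 0% of tested probe sets and for 0 of the 8 genes, with 0 genes at an unadjusted p under 0.05. The differences ran from -0.41 for SUCLG1 (95% interval -0.91 to 0.08, adjusted p 0.780) to 0.30 for OGDH. Omitting the replicate 2 Nnm arrays, 11.2% of probe sets were called in this contrast and again 0 of the 8 genes. In control cells 48 h against 24 h gave 0% of probe sets and 0 of the 8 genes, also at an unadjusted p under 0.05. The control differences ran from -0.39 for IDH3A (adjusted p 0.718), whose 48 h and 24 h arrays did not overlap, to 0.36 for IDH2 (adjusted p 0.772). With the replicate 2 Nnm arrays left out of the fit, 0.114% of probe sets were called in this control comparison and 0 of the 8. Among Nnm arrays the same comparison again gave 0% and 0 of the 8, also at an unadjusted p under 0.05. There the differences ran from -0.24 for MDH2 (adjusted p 0.418), again without overlap, to 0.40 for IDH2 (adjusted p 0.485). In each of these comparisons over time 1 of the 8 genes lay apart in this way. The share of all probe sets that did is not given here, so nothing is read from that count. Once the replicate 2 Nnm arrays were left out, 21.8% of probe sets were called in this comparison of Nnm arrays and 0 of the 8. With limma array weights, which called 7850 of 22829 probe sets here, IDH2 was called higher and MDH2 lower in Nnm cells at 48 h than at 24 h. The effects at 24 h and 48 h were each measured against controls of their own time.

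Across the 12 arrays the genes moved together to different degrees. Over the 28 pairs of genes Pearson's r ran from -0.16 to 0.95, with a median of 0.63. IDH3B and DLST were the most alike at 0.95, CS and OGDH followed at 0.91, and IDH3A and SUCLG1 were the least alike at -0.16. Against the mean of the other 7, OGDH had an r of 0.918, IDH3B 0.915, DLST 0.876, CS 0.795, MDH2 0.760, IDH2 0.681, SUCLG1 0.604 and IDH3A 0.33. These correlations describe 12 arrays in 4 groups and carry the Nnm difference within them. The mean of the 8 centred profiles was -0.27, -0.19 and -0.34 with Nnm at 24 h against 0.44, 0.17 and 0.30 in control. The 48 h means were -0.23, -0.34 and -0.32 with Nnm against 0.35, 0.11 and 0.32 in control, so that the lowest control value at each time was that of replicate 2. Of 10958 other tested genes, the 5 whose profiles were most like this mean over the 12 arrays were ARFIP2 (r 0.989), SLC6A20 (r 0.980), FASN, the fatty acid synthase (r 0.975), ENDOG, a mitochondrial nuclease (r 0.975), and PHB2, a prohibitin of the inner mitochondrial membrane (r 0.974). Their log2 differences at 24 h ran from -0.56 for PHB2 to -1.45 for SLC6A20. These genes were picked by likeness to a mean that is lower on every Nnm array, so a lower level with Nnm followed from the choice.

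Genes around the 8 enzymes were read from 5 lists, to be set beside the shares of all tested probe sets called in each fit. With all arrays and no block these were 7.32% higher and 7.42% lower at 24 h, and 5.74% higher and 4.44% lower at 48 h. The shared replicate block called 14.2% higher and 15.1% lower at 24 h, and 11.9% and 10.2% at 48 h. The block within each time called 5.34% higher and 5.24% lower at 24 h, and 5.79% and 4.21% at 48 h. Omitting the replicate 2 Nnm arrays, 23.4% were called higher and 23.6% lower at 24 h, and 22.3% and 19.8% at 48 h.

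The remaining enzymes of the cycle were read from a list of 10, of which 8 had a probe set of their own and were tested. All 8 averaged lower with Nnm at both times, with a median of -0.64 at 24 h and -0.91 at 48 h. At 24 h 2 of the 8 fell and 0 rose, against 7.42% of all probe sets lower, and at 48 h 4 fell and 0 rose, against 4.44%. IDH3G, the gamma subunit that joins IDH3A and IDH3B, averaged 10.91 ± 0.05 with Nnm and 11.37 ± 0.08 in control at 24 h, and fell by 0.46 (adjusted p 0.0440). At 48 h it fell by 0.74 (adjusted p 0.0142). SDHA, the flavoprotein of succinate dehydrogenase, averaged 9.81 ± 0.49 with Nnm and 10.97 ± 0.09 in control at 24 h, and fell by 1.16 (adjusted p 0.0190). At 48 h it fell by 1.17 (adjusted p 0.0203). DLD, the lipoamide dehydrogenase shared by the oxoglutarate and pyruvate dehydrogenase complexes, and SUCLG2, the GTP-forming beta subunit that pairs with SUCLG1, were called at 48 h and not at 24 h. Their 48 h differences were -1.08 (adjusted p 0.0337) and -1.54 (adjusted p 0.0215). At 24 h DLD stood at -0.72 (adjusted p 0.0857) and SUCLG2 at -1.01 (adjusted p 0.0595). Without the Nnm arrays numbered 2, 6 of these 8 were called lower at each time, against 23.6% and 19.8%. With the shared block 5 were at each time, against 15.1% and 10.2%. The block within each time called SDHA alone at 24 h, where IDH3G had an adjusted p of 0.0809, and 5 at 48 h, against 5.24% and 4.21%.

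Genes that feed the cycle or carry its intermediates numbered 18 in the list and 17 tested. At 24 h 6 fell and 1 rose, and at 48 h 7 fell and 0 rose, with a median of -0.45 and -0.69. PDHA1, the catalytic subunit of pyruvate dehydrogenase that supplies acetyl-CoA to CS, fell by 0.77 at 24 h (adjusted p 0.0408) and by 1.28 at 48 h (adjusted p 0.0124). SLC25A11, the carrier that exchanges 2-oxoglutarate for malate, fell by 1.35 (adjusted p 0.0132) and by 1.11 (adjusted p 0.0220). SLC25A10, the dicarboxylate carrier, fell by 1.46 at 24 h (adjusted p 0.0226), and at 48 h it averaged 5.49 ± 0.17 with Nnm and 6.49 ± 0.55 in control without passing the test (adjusted p 0.0727). SLC25A12, an aspartate-glutamate carrier, was the gene that rose, by 0.78 at 24 h (adjusted p 0.0413), against 0.69 at 48 h (adjusted p 0.0681). Omitting the replicate 2 Nnm arrays, 10 fell at each time, against 23.6% and 19.8% of all probe sets, while 2 rose at 24 h and 4 at 48 h, against 23.4% and 22.3%. With the shared block 2 rose and 8 fell at 24 h, and 3 rose and 10 fell at 48 h. With the block within each time 1 rose and 2 fell at 24 h, and 0 rose and 4 fell at 48 h. That fit lost the 24 h calls of PDHA1 (adjusted p 0.0592), SLC25A10 (adjusted p 0.0522) and SLC25A12 (adjusted p 0.0590), and the 48 h call of SLC25A11 (adjusted p 0.0566).

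The cytosolic enzymes that mirror the cycle or use its citrate did not all move one way. Of 7 listed and tested, 1 rose and 1 fell at 24 h, against 7.32% and 7.42% of all probe sets, and 1 rose and 3 fell at 48 h, against 5.74% and 4.44%, with a median of -0.39 and -0.60. IDH1, the cytosolic NADP-dependent counterpart of IDH2, averaged 12.34 ± 0.10 with Nnm and 11.77 ± 0.09 in control at 24 h, and 12.22 ± 0.15 with Nnm and 11.67 ± 0.11 in control at 48 h (SD, n = 3 each). It rose by 0.57 (adjusted p 0.0214) and by 0.55 (adjusted p 0.0253), where its mitochondrial counterpart stood at -0.73 and -0.68 without passing the test. The block within each time ended the IDH1 call at both times (adjusted p 0.0505 and 0.0551). FASN fell by 1.31 (adjusted p 0.0127) and by 1.28 (adjusted p 0.0135). MDH1, the cytosolic counterpart of MDH2, and ACLY, which splits exported citrate, fell at 48 h, with log2 differences of -0.88 (adjusted p 0.0361) and -0.64 (adjusted p 0.0460), and at 24 h they stood at -0.42 (adjusted p 0.204) and -0.46 (adjusted p 0.0912). With the replicate 2 Nnm arrays omitted, 2 rose and 5 fell at 24 h, and 2 rose and 4 fell at 48 h. With the shared block 2 rose and 1 fell at 24 h, and 1 rose and 3 fell at 48 h. With the block within each time 0 rose and 1 fell at 24 h, and 0 rose and 2 fell at 48 h, where the call of ACLY was lost (adjusted p 0.0745).

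Genes for the lipoyl and iron-sulfur cofactors and for the assembly of succinate dehydrogenase had medians near those of all probe sets, 0.05 at 24 h and -0.01 at 48 h. Of 13 listed and 11 tested, 1 rose and 1 fell at 24 h, and 1 rose and 0 fell at 48 h, counts close to the shares of all probe sets. LIPT1, a lipoyltransferase that acts on components such as DLST, averaged 8.96 ± 0.39 with Nnm and 7.61 ± 0.14 in control at 24 h, and rose by 1.35 (adjusted p 0.0153). The 48 h rise was 1.26 (adjusted p 0.0185). SDHAF4, an assembly factor that binds SDHA, fell by 1.30 at 24 h (adjusted p 0.0441), and its 48 h difference was -0.93 (adjusted p 0.128). Omitting the replicate 2 Nnm arrays, 3 rose and 3 fell at 24 h, and 1 rose and 2 fell at 48 h. With the shared block 1 rose and 2 fell at 24 h, and 1 rose and 1 fell at 48 h. With the block within each time 1 rose and 0 fell at each time, and the 24 h call of SDHAF4 was lost (adjusted p 0.0602).

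Regulators of mitochondrial genes were listed last, with 11 genes of which 10 were tested. At 24 h 1 rose and 2 fell, and at 48 h 1 rose and 1 fell, with a median of -0.08 and -0.09. The shares of all probe sets were 7.32% higher and 7.42% lower at 24 h and 5.74% and 4.44% at 48 h, so that 1 gene of 10 is close to them. GABPA, whose family binds the ETS core shown above for DLST, IDH3B and MDH2, averaged 8.40 ± 0.42 with Nnm and 7.22 ± 0.20 in control at 24 h, and rose by 1.18 (adjusted p 0.0137). At 48 h it rose by 1.00 (adjusted p 0.0218). Whether GABPA acts on those genes in these cells was not tested. The coactivators PPARGC1A and PPRC1 fell at 24 h, with log2 differences of -1.59 (adjusted p 0.0378) and -1.06 (adjusted p 0.0120), and at 48 h they stood at -0.95 (adjusted p 0.166) and -0.59 (adjusted p 0.0587). The transcription factor MYC fell by 0.66 at 48 h (adjusted p 0.0488) and stood at -0.61 at 24 h (adjusted p 0.0512). Omitting the replicate 2 Nnm arrays, 3 rose and 3 fell at 24 h, and 2 rose and 3 fell at 48 h. With the shared block 1 rose and 3 fell at 24 h, and 1 of each at 48 h. With the block within each time the 48 h call of MYC was lost (adjusted p 0.0920), and the other calls held.

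**Figure D5:**
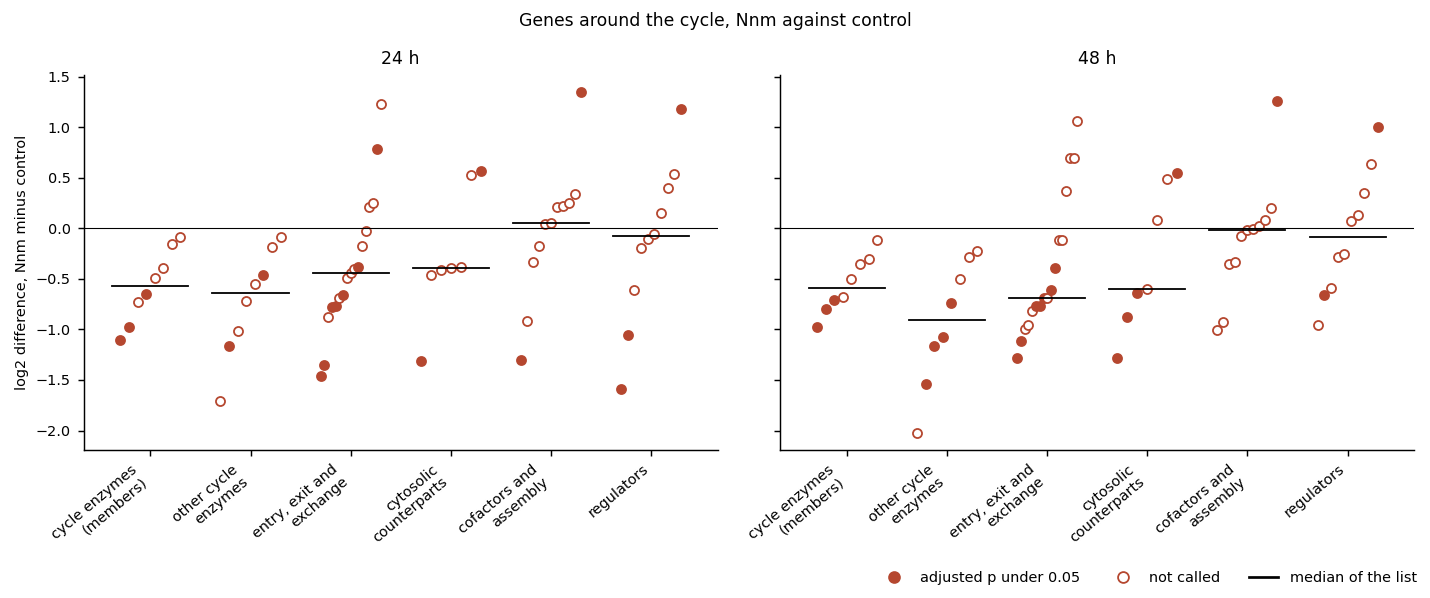
Log2 difference of Nnm minus control for every tested gene of the 8 cycle enzymes and of the 5 surrounding lists, at 24 h (left) and 48 h (right), with list medians as lines; filled points were called at an adjusted p under 0.05. The cycle enzymes and the other enzymes of the cycle lie below 0 without exception, while the remaining lists hold genes on both sides.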

How the data were processed

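The authors deposited log2 expression values for each probe set on each array. Per the submitters' processing notes these come from GCRMA, whose version is not stated. GCRMA normalizes arrays to one another, so a shift shared by most genes would not show. The set of arrays it was run on is not stated in the labels. From 54675 probe sets, 62 controls were left out, and 22829 with log2 above 4 on at least 3 of 12 arrays were tested. The gene symbols are those of the platform annotation and match the RefSeq gene table of GRCh38.p14.

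All arrays entered 1 limma 3.58.1 fit (R 4.3.3) with 4 groups and 8 residual degrees of freedom, with eBayes and Benjamini-Hochberg adjustment over all tested probe sets. Every adjusted p is from limma. The procedure was tested on simulated data. Tables and plots were made with Python 3.11.15 and matplotlib 3.10.9. The number of arrays limits the precision.

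The genes and lists were chosen with earlier results of these data known. Every cycle enzyme gene with a probe set was named. From each list up to 4 called genes with the largest change at either time were named, or, with fewer than 2 calls, the 2 genes of lowest p. The 5 genes with the most similar profile were named too. The second probe sets of IDH3A and MDH2 were described in full after their values were seen.

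Deviations from the group means correlated in 18 of 18 pairs of arrays with the same replicate number, at 0.162 to 0.669 and so above 0.1. The 36 pairs with unlike numbers ran from -0.655 to 0.372, with a median of -0.208, and 2 of them were above 0.1. Deviations from a group mean cancel out within the group, so positive same-number correlations make the unlike pairs negative on balance by construction. That negative median is thus no separate evidence of pairing. From the same-number correlations alone, the numbers were taken to pair the samples, on the data's account and with no label behind it. The list counts are therefore given with the replicate number as a block shared by all arrays and as a block within each time. Alternatives varied the filter, block, arrays fitted, normalization, choice of probe set, array weights, prior and arrays included.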

Additional observations from a re-analysis of the deposited data

How the results depend on the processing

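Counts are of genes called at an adjusted p under 0.05 in limma. For the 8 cycle enzyme genes, 3 were called in Nnm against control at 24 h. This became 0 when only the arrays of the groups compared were fitted, a fit that called 112 of all tested probe sets. It became 5 with array weights, which called 12093 of all tested probe sets against 3366 with equal weights. Leaving out 1 array gave 0 to 4, with 0 without Nnm replicate 1 or 3 or control replicate 1 or 3 of that time. The fits with 0 called 81 to 404 of all tested probe sets. At 48 h, 3 were called. This became 1 with no filter, where 54613 probe sets shared the adjustment, and 6 with the replicate block over all arrays. It became 0 with only the arrays compared, 6 with array weights and 5 without the Nnm arrays numbered 2. Over all probe sets these fits called, in turn, 842, 5046, 115, 11202 and 9605, against 2323 in the main fit. Leaving out 1 array gave 0 to 4, with 0 without Nnm replicate 1 or 3 or control replicate 1 or 3 of that time and 1 without control replicate 2. The fits with 0 called 207 to 403 of all tested probe sets, and that without control replicate 2 called 815. The difference between the times and control 48 h against 24 h gave 0 of the 8 under every alternative run (array weights called 3899 of all tested probe sets in the first). The fit of only the arrays compared gives no value for the difference between the times. With the block within each time, 48 h against 24 h in control or Nnm cells compares fitted levels of replicate 1. That fit therefore says nothing on the group means over time. Nnm 48 h against 24 h gave 2 with array weights, and 1 without Nnm replicate 2 of 24 h (IDH2), in a range of 0 to 1. Those fits called 7850 and 3683 of all tested probe sets in this comparison. The other cycle enzymes had 2 called at 24 h, against 0 with no filter, 5 with the replicate block over all arrays and 1 with it within each time. They had 0 with only the arrays compared, 1 after quantile normalization, 1 with the mean of probe sets and 6 with array weights. Without the Nnm arrays numbered 2 they had 6, and 0 to 6 leaving out 1 array. Over all probe sets 848 were called with no filter, 6700 and 2415 with the blocks, and 3332 after quantile normalization. Without the Nnm arrays numbered 2 it was 10730, and with the mean of probe sets 2097 of 10966 genes. At 48 h they had 4, against 1 with no filter, 0 with only the arrays compared, 7 with array weights and 0 to 5 leaving out 1 array. IDH3A at 48 h turned to 0.12 with array weights and to 0.15 without Nnm replicate 2 of 48 h or without both Nnm arrays numbered 2, and leaving out 1 array gave -0.27 to 0.15. Of the single-gene alternatives 316 kept direction and call, 23 gained the call, 42 lost it and 3 turned direction. For the 8 genes the replicate block over all arrays changed no call other than those of CS, SUCLG1 and MDH2, and that within each time none other than CS at 24 h. The causes were not tested beyond what each alternative changes by construction.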
